A study of Homo sapiens with 8 samples.

Results

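The comparison described here sets SKBR3 cells given E2-BSA together with ICI against SKBR3 cells given E2-BSA alone. It rests on 2 of the 8 expression arrays of the study, 1 array a side, and takes every gene that the array annotation names by a single symbol: 19775 genes, which are all the genes analysed in the study. Each gene is the mean of its probe sets, and a difference is the value on the E2-BSA plus ICI array minus the value on the E2-BSA array.

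SKBR3 is a HER2-amplified human breast cancer cell line that is commonly described as lacking estrogen receptor alpha while expressing the membrane estrogen receptor GPER1. E2-BSA is estradiol coupled to bovine serum albumin, a carrier generally taken to keep the hormone outside the cell. ICI is known here only by that abbreviation. Before every treatment, which lasted 3 h, the cells spent 4 h in medium whose serum (10%) had been stripped with charcoal. E2-BSA was used at 1e-06 M on both arrays compared, and ICI was added at 1e-05 M on one of them. The other 6 arrays held untreated cells, 0.1% ethanol, BSA at 1e-06 M, estradiol at 1e-06 M, the combination of 1e-06 M E2-BSA with 1e-05 M G15, and 1e-05 M G15 by itself. G15 is an antagonist of GPER1. No array of cells given ICI without E2-BSA was used here, so an effect of ICI itself and an effect of ICI on the response to E2-BSA cannot be told apart. Every condition has 1 array, so the differences carry no replicate error and no test. Fewer cells expressing a gene and less RNA per cell cannot be told apart.

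The deposited values are centred for each probe set, so 0 marks the middle of the 8 arrays and the level of a gene is not known. They are read as log2 values, on which a difference of 1 is 2-fold. Genes were counted at 2-fold and, as a looser call, at 1.5-fold.

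The ID proteins are helix-loop-helix proteins without a DNA-binding region that hold E proteins away from their target genes. Bone morphogenetic proteins (BMPs) raise their transcription within hours through SMAD proteins, together with that of the inhibitory SMADs that damp the pathway. Interferon-stimulated genes encode antiviral proteins and are switched on by a complex that contains IRF9, at short DNA elements in their promoters.

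With ICI added, 8 genes were lower by at least 2-fold (0.0405% of the 19775) and 6 were higher (0.0303%). The lower genes were RAC3, ID1, C3orf33, IFIT1, ID2, SAMD9, LINC02893 and ID4. The higher genes were OR10H3, YPEL3-DT, FAM111B, MIR4755, ESCO1 and ANKRD36B. At 1.5-fold, 112 genes were lower (0.566%) and 204 were higher (1.03%). The SD of the difference over all genes was 0.218, against 0.166 for BSA minus untreated and 0.304 for ethanol minus untreated, both pairs without hormone or antagonist. BSA minus untreated itself had 6 genes higher by 2-fold and 0 lower. On the lower side of the 2-fold line LINC02893 (-1.01) and ID4 (-1.003) lay just inside, and MICALCL (-0.99) and MATN3 (-0.92) just outside. On the higher side ANKRD36B (1.001) and ESCO1 (1.01) lay inside, and KIF21A, which reached 0.998, and ABHD16B (0.99) outside.

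**Figure D1:**
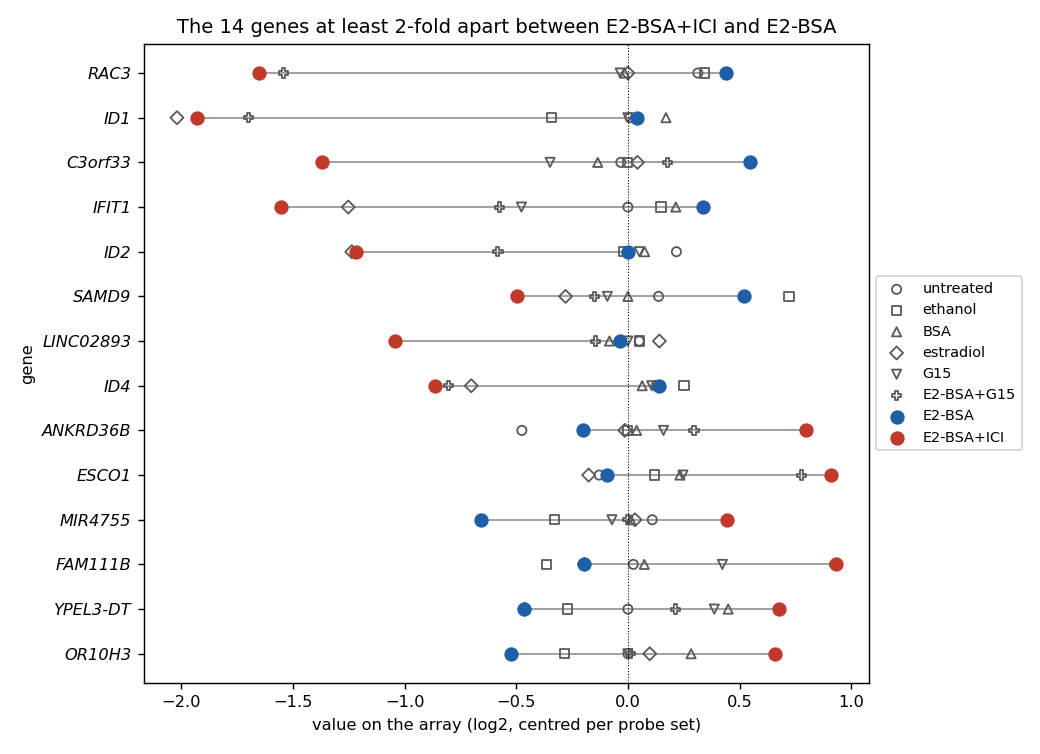
Values of the 14 genes at least 2-fold apart (rows) on the 8 arrays, as log2 values centred per probe set and averaged per gene. The blue point is the E2-BSA array, the red point the E2-BSA plus ICI array and the open symbols the other 6 arrays; for ID1 and ID2 the estradiol array lies beside the red point, and for RAC3, ID1, ID4, ESCO1 and FAM111B the E2-BSA plus G15 array does.

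The ID genes held 3 of the 8 lower places, and all 4 members of the family were lower by at least 1.5-fold. ID1, an inhibitor of E proteins induced by BMPs, stood at 0.04 with E2-BSA and at -1.93 with ICI added, a difference of -1.97 or 3.92-fold. The E2-BSA value was near those of the untreated (0.01), BSA (0.17) and G15 (0.00) arrays. The ICI value was near those of the estradiol (-2.02) and E2-BSA plus G15 (-1.698) arrays. The 8 arrays thus fell apart for ID1, with 3 arrays at -1.698 or below and 5 at -0.34, the ethanol array, or above.

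ID2, which acts in the same way, stood at 0.00 with E2-BSA and at -1.22 with ICI, 2.33-fold lower. Both of its probe sets gave nearly the same difference, -1.24 and -1.20, and a further probe set that the annotation assigns to ID2 and a second gene gave -1.19. On the other arrays ID2 was at -1.24 with estradiol and at -0.58 with E2-BSA plus G15, and the remaining 4 lay between -0.02 and 0.22. ID3 had 1 probe set and stood at 0.09 with E2-BSA and at -0.56 with ICI, a difference of -0.64. Estradiol (-0.72) and E2-BSA plus G15 (-0.71) were again on the low side, below the ICI array.

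ID4 stood at 0.14 with E2-BSA and at -0.86 with ICI. Its mean of -1.003 joined 5 probe sets that did not move alike. A pair of them differed by -2.42 and -1.72, another by -0.94, and the rest by 0.00 and 0.06. The probe set at 0.06 was low on the estradiol (-0.90) and E2-BSA plus G15 (-0.60) arrays and not on the ICI array (0.04). The median of the 4 ID genes was -1.11. ID4 alone keeps probe sets when those with the suffixes for shared or cross-hybridising sequence are left out, and it then differed by -1.38.

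The list of other BMP and TGF-beta targets and feedback genes, 24 measured, had a median of -0.20 beside 0.01 for all genes. With BSA as the reference that median was -0.10, and with untreated cells -0.11. Against E2-BSA, 19 members of the list were below 0 (79.2%, beside 46.8% of all genes) and 5 above. None reached 2-fold, and 3 were lower by at least 1.5-fold (0.566% of all genes were), SMAD7, DLX3 and DLX2. SMAD7, an inhibitory SMAD, stood at 0.22 with E2-BSA and at -0.66 with ICI. DLX3, a homeobox transcription factor, stood at 0.15 and at -0.61. DLX2, its relative, stood at -0.03 and at -0.71, with its 2 probe sets apart at -1.12 and -0.23. On the estradiol array SMAD7, DLX3 and DLX2 stood at -0.61, -0.65 and -0.52, and the E2-BSA plus G15 array stood at -0.53, -0.37 and -0.49.

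Single probe sets of further genes of the pathway, chosen here after their values were seen, were also lower with ICI. For SMAD6, the other inhibitory SMAD, 1 of 4 probe sets stood at 0.00 with E2-BSA, -0.96 with ICI, -0.84 with estradiol and -0.88 with E2-BSA plus G15, and the others differed by -0.40, -0.08 and 0.30. For DLX1, 1 of 2 probe sets stood at 0.28, -0.83, -0.83 and -0.88 on the same 4 arrays, and the other was higher with ICI by 0.33. For SMAD9, a SMAD that carries the BMP signal, 1 of 2 stood at 0.35, -0.84, -0.61 and -0.28, and the other was higher with ICI by 0.35. ZNF423 (0.48) and HES1 (0.34) lay on the other side of 0.

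**Figure D2:**
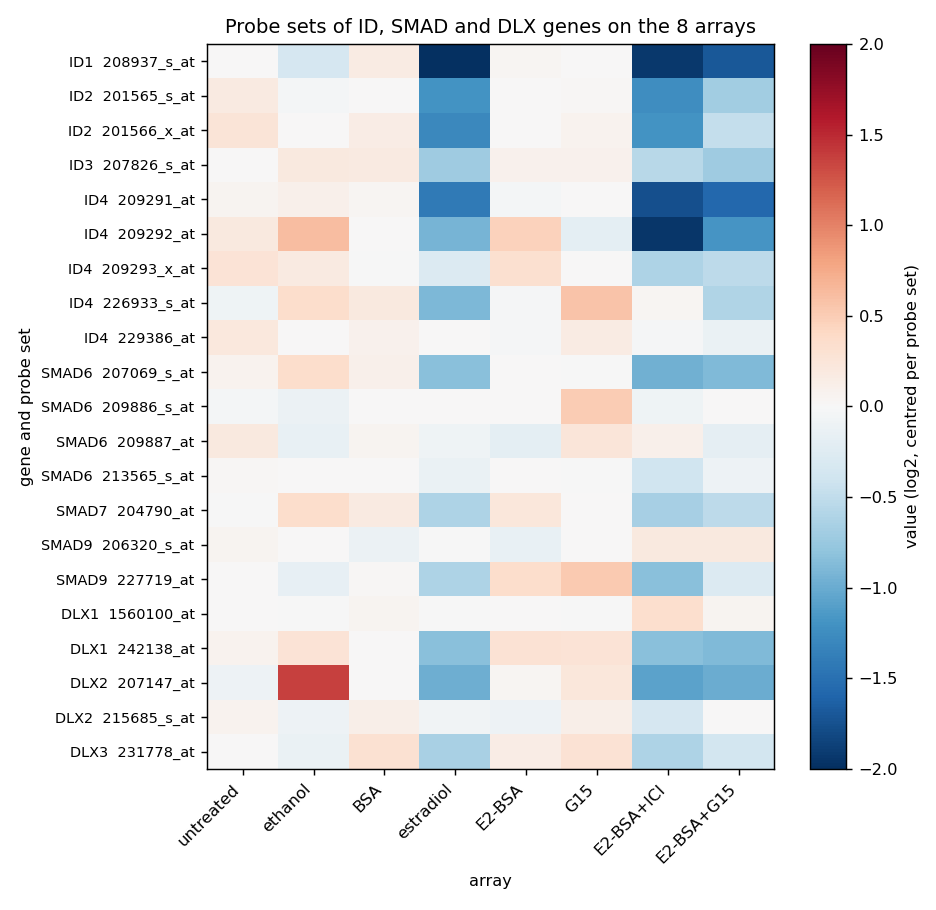
Heat map of 21 probe sets of ID, SMAD and DLX genes (rows) on the 8 arrays (columns). Colour is the log2 value centred per probe set, from -2 in blue to 2 in red. The columns of estradiol and of E2-BSA with either antagonist hold the blue cells, and not every probe set of ID4, SMAD6, SMAD9, DLX1 and DLX2 shows them. SMAD6, SMAD9 and DLX1 were chosen after their values were seen.

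The genes that make and carry the signal were close to 0. The 24 BMP and TGF-beta receptors, ligands and SMADs had a median of -0.03, with 16 below 0 (66.7%, beside 46.8% of all genes) and none at 1.5-fold. The lowest were SMAD9 (-0.42) and SMAD1 (-0.37), and TGFB1 was the highest at 0.21. The 15 E proteins and other helix-loop-helix partners had a median of 0.03, and TCF3, TCF12 and TCF4, the E proteins that ID proteins bind, differed by -0.04, -0.02 and 0.03.

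The promoter of SMAD6 is printed because it was the only promoter of the BMP target list with the palindrome GTCTAGAC, a SMAD binding motif found in 0.182% of all promoter windows searched. The search covered the 250 bases before each RefSeq gene start on GRCh38.p14, on both strands. The stretch lies on the plus strand at chr15:66702189-66702235, and capitals mark the palindrome.
SMAD6: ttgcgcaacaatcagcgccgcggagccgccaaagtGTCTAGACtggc
The other SMAD motif, GGCGCC, stood in 16.4% of all windows and in 26.2% of the genes analysed. It stood in 7 of 20 windows of the BMP list (35%) and in 0 of 4 windows of the ID genes. The absence of these letters from a window says nothing of the factor.

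The next group was the interferon-stimulated genes. Of 57 measured, the IFIT family included, 11 were lower by at least 1.5-fold and 1 was higher, and 36 were below 0. Among all genes the corresponding shares were 0.566% and 1.03%, and 46.8% were below 0.

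IFIT1, which binds viral RNA that lacks the cap modification of host RNA, stood at 0.34 with E2-BSA and at -1.56 with ICI, a difference of -1.89 or 3.72-fold, from 1 probe set. The estradiol array (-1.25) was the next lowest, followed by E2-BSA plus G15 (-0.57) and G15 alone (-0.48). Untreated cells (0.00), ethanol (0.15) and BSA (0.21) lay below the E2-BSA array, which was the highest of the 8. IFIT3, a partner of IFIT1, stood at 0.43 and at -0.49, but its 2 probe sets differed by -1.67 and -0.16. IFIT5 (-0.56) and IFIT2 (-0.28) were under the 1.5-fold line. The median of the 4 IFIT genes was -0.74.

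SAMD9, an antiviral protein that limits translation, stood at 0.52 with E2-BSA and at -0.49 with ICI, 2.02-fold lower, with both probe sets on the same side (-1.21 and -0.82). Only the ethanol array (0.72) was above E2-BSA for SAMD9, and the ICI array was the lowest of the 8. OAS1, which makes the second messenger that activates RNase L, stood at 0.30 and at -0.58, with both probe sets lower (-0.98 and -0.78). RIGI, a cytoplasmic sensor of viral RNA, stood at 0.37 and at -0.25, with all 3 probe sets between -0.64 and -0.59.

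The others at 1.5-fold each had 1 probe set. CMPK2, a mitochondrial nucleotide kinase, differed by -0.86. IFI44L differed by -0.77 and DDX60, a helicase, by -0.72. TRIM22, an antiviral ubiquitin ligase, differed by -0.67. IRF9, a DNA-binding factor of the interferon response, differed by -0.63, and MX1, an antiviral GTPase, by -0.61. In all 11 genes the E2-BSA array was above the median of the other 6 arrays, and in 10 the ICI array was below each of those 6. Choosing genes by a lower ICI value favours both, and among all 112 genes lower by 1.5-fold the same held in 107 and 79. HERC5, a ligase for the ubiquitin-like protein ISG15, lay the other way, at -0.36 with E2-BSA and 0.34 with ICI. MX2, a relative of MX1, also lay above 0 (0.53) without reaching 1.5-fold.

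**Figure D3:**
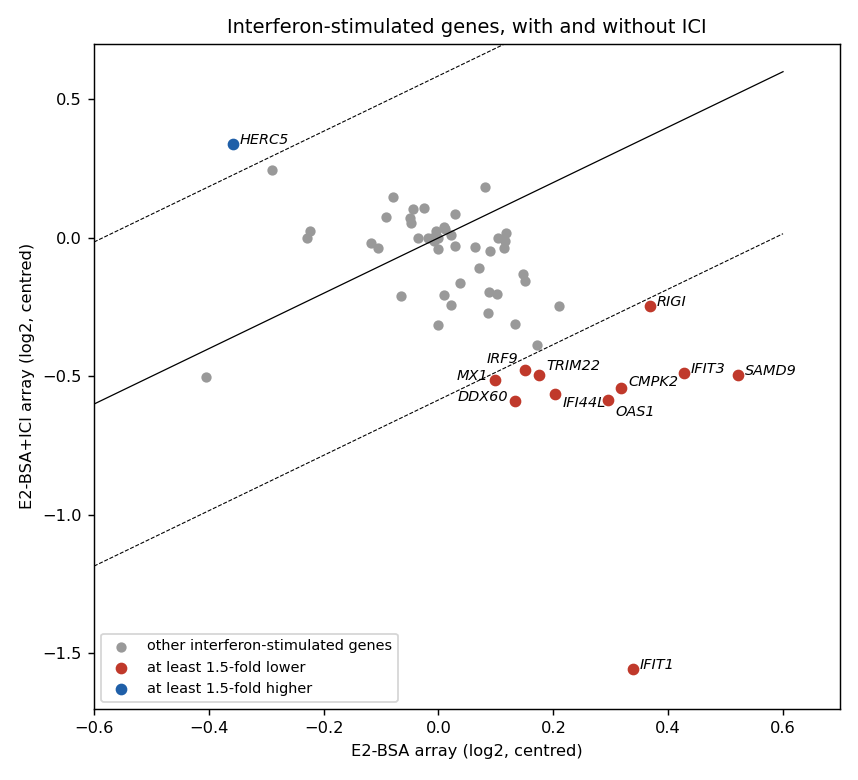
The 57 interferon-stimulated genes by their value on the E2-BSA array (x axis) and on the E2-BSA plus ICI array (y axis), both log2 and centred per probe set. The solid line marks equal values and the dashed lines a 1.5-fold difference; 11 named genes in red lie under the lower dashed line, with IFIT1 at -1.56 on the y axis, and HERC5 in blue lies above the upper one.

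The size of the interferon differences varied with the reference array. The IFIT median was -0.44 when the BSA array replaced the E2-BSA array and -0.53 with the untreated array. The 53 other interferon-stimulated genes had a median of -0.10 against each of E2-BSA and BSA, and of -0.03 against untreated cells. SAMD9 was lower by 0.49 against BSA, in place of 1.02 against E2-BSA, and IFIT1 by 1.77 in place of 1.89. IFI27, a mitochondrial interferon-stimulated protein, differed by only -0.10 from E2-BSA and by -1.38 from BSA, whose array was high for it (0.88). The receptors, ligands and signalling genes of the interferon pathway, 23 in all, had a median of 0.01 and none at 1.5-fold, and IFNB1 stood at 0.00.

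The interferon-stimulated promoters printed below were picked from the lower genes that hold a motif, so their sharing it follows from that choice. The core of the interferon-stimulated response element, GAAA and GAAA separated by any 2 bases, on either strand, was present in 3.02% of all 35116 promoter windows. It was present in 28 of the 45 interferon genes with a promoter entry (62.2%) and in 6 of the 10 lower ones (60%). Among all 91 genes lower by 1.5-fold with an entry, 10 held it (11%), and among the 145 higher ones 3 did (2.07%), beside 3.39% of the analysed genes. The 10 include the 6 lower interferon genes just counted, so the 11% is not separate from them. The motif is part of what makes a gene interferon-responsive, so its share in that list is a property of the list. Each stretch below is read in the direction of its gene from RefSeq GRCh38.p14, and capitals mark the motif or its reverse complement. IFIT1 lies on the plus strand at chr10:89392472-89392564, SAMD9 on the minus strand at chr7:93118071-93118150, DDX60 on the minus strand at chr4:168318761-168318875 and MX1 on the plus strand at chr21:41431819-41431898.
IFIT1: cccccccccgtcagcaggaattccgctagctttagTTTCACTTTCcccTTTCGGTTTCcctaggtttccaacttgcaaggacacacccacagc
SAMD9: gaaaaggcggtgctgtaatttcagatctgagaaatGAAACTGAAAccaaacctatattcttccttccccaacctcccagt
DDX60: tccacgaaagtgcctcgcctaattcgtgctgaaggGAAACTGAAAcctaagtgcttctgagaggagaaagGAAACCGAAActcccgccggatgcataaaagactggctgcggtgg
MX1: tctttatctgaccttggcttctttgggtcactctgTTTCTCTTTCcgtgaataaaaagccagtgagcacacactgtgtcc
IFIT1 and DDX60 each held 2 matches, and the nearest ended 94 and 44 bases before the gene start. IFI44L and IFIT3, the remaining 2 of the 6, held 2 matches each as well.

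The lowest gene of the comparison, RAC3, belongs to neither group. RAC3, a small GTPase that acts on the cytoskeleton, stood at 0.44 with E2-BSA and at -1.65 with ICI, a difference of -2.09 or 4.26-fold, from 1 probe set. The E2-BSA plus G15 array was as low (-1.54). The other 5 arrays lay between -0.03 and 0.34, estradiol among them at 0.00, which sets the order of arrays apart from that of ID1.

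C3orf33 stood at 0.55 with E2-BSA, the highest of the 8 arrays, and at -1.37 with ICI, the lowest. The other 6 lay between -0.35 and 0.18, with E2-BSA plus G15 at 0.18, so neither the estradiol nor the G15 combination array followed the ICI array. LINC02893, a long non-coding RNA, stood at -0.04 with E2-BSA and at -1.04 with ICI, while the other 6 arrays kept between -0.15 and 0.14. Both rest on 1 probe set.

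Of the 6 higher genes, FAM111B and ESCO1 had several probe sets. FAM111B, a protease, stood at -0.20 with E2-BSA and at 0.93 with ICI, 2.19-fold higher, with both probe sets on the same side (0.77 and 1.495). E2-BSA plus G15 gave the same value as ICI (0.93), G15 alone 0.42, and the other 4 arrays lay between -0.36 and 0.07. ESCO1, an acetyltransferase that acts in sister chromatid cohesion, stood at -0.10 and at 0.91, and E2-BSA plus G15 at 0.78. Its 3 probe sets gave 1.86, 1.16 and 0.00, so its mean rests on a pair of them. SMC3, the cohesin subunit that ESCO1 acetylates, differed by 0.61 on average and by -0.53 to 2.15 between its 4 probe sets. The 18 cohesion genes had a median of 0.00, with 9 above 0 and 9 below.

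OR10H3, an olfactory receptor gene, stood at -0.52 with E2-BSA and at 0.66 with ICI, and the other 6 arrays lay between -0.29 and 0.28. YPEL3-DT, a divergent transcript, stood at -0.47 and at 0.68, with estradiol at -0.46 and BSA at 0.45. MIR4755 stood at -0.66 and at 0.44, from 1 probe set annotated to this microRNA gene, and the mature microRNA is not measured by it. In OR10H3, YPEL3-DT and MIR4755 the E2-BSA array was the lowest of the 8. ANKRD36B stood at -0.20 and at 0.80, with the untreated array lowest at -0.47. With the BSA array as the reference, 3 genes were higher by 2-fold (0.0152% of all) and 6 lower (0.0303%). None of the 6 higher genes above was among the former, and 5 of the 8 lower genes were among the latter: RAC3 (-1.64), ID1 (-2.10), C3orf33 (-1.24), IFIT1 (-1.77) and ID2 (-1.29).

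Of the 112 genes lower by 1.5-fold, the ICI array was the lowest of the 8 in 80, ties included, and the E2-BSA array the highest in 48. Of the 204 higher genes, the ICI array was the highest in 161 and the E2-BSA array the lowest in 125. Over all 19775 genes the ICI array was lowest in 2435 and highest in 3275. The median E2-BSA value of the 204 higher genes was -0.30 and the median ICI value was 0.39, values that the choice of these genes by the difference itself pushes apart. Of the higher genes 86.3% rested on 1 probe set, beside 70.5% of the lower and 46.8% of all genes. Long non-coding RNAs made up 25% of the higher, 12.5% of the lower and 13.4% of all genes.

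Genes measured by several probe sets that all passed 1.5-fold in the same direction were few, 6 lower and 3 higher. Besides ID2, SAMD9, OAS1 and RIGI, the lower ones were PPP3R1, the regulatory subunit of the phosphatase calcineurin, at -0.76, and MOCS2, an enzyme of molybdenum cofactor synthesis, at -0.62. PPP3R1 was as low with E2-BSA plus G15 (-0.59) as with ICI (-0.56). The higher ones were FAM111B, PPP1R17, a phosphatase inhibitor, at 0.72, and SF3A2, a splicing factor subunit, at 0.60. With BSA as the reference, ID2 (-1.29), FAM111B (0.86), OAS1 (-0.76) and PPP3R1 (-0.64) stayed past 1.5-fold. SAMD9 (-0.49), PPP1R17 (0.29), MOCS2 (-0.27), RIGI (-0.26) and SF3A2 (0.11) did not.

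The transcripts of the estrogen receptors and their relatives, 8 measured, did not reach 1.5-fold and had a median of 0.08. ESR1, estrogen receptor alpha, differed by 0.06 over 9 probe sets, ESR2, estrogen receptor beta, by 0.10 and PGR, the progesterone receptor, by 0.11. GPER1 differed by 0.05, the mean of probe sets that lay apart at -0.46 and 0.56. Among 25 targets of nuclear estrogen receptors the median was -0.06 and none was at 1.5-fold. The largest differences were those of TFF1 (0.53), a secreted peptide induced by estradiol in receptor-positive cells, and NRIP1 (-0.48), a corepressor. The estrogen response element, GGTCA and TGACC separated by any 3 bases, was in 0.0399% of all promoter windows and in none of the 91 lower or 145 higher genes with an entry.

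Immediate early genes lay somewhat above 0. The 29 measured had a median of 0.10, with 21 above 0 (72.4%) and 6 below, and 1 at 1.5-fold. Of all genes 51.4% were above 0 and 1.03% were higher by 1.5-fold. EGR1, a zinc finger factor induced by MAP kinase signalling, stood at -0.23 with E2-BSA and at 0.55 with ICI, a difference of 0.79, with probe sets at 0.31, 0.90 and 1.15. The ethanol array was far higher for EGR1 (1.38), and estradiol stood at 0.33. FOS, a subunit of AP-1, differed by 0.56 and was at 2.46 with ethanol. DUSP4, a phosphatase that switches off MAP kinases, stood at 0.08 and at 0.70, with its 3 probe sets at 0.71, 0.51 and 0.65. DUSP4 was equally high with estradiol (0.63), and the ethanol array stood at -0.04. The 19 DUSP and Sprouty genes had a median of 0.01.

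Other lists were described in the same way and had medians between -0.23 and 0.12. Beside their counts, 46.8% of all genes were below 0. The 12 YAP targets had a median of -0.23 with 10 below 0, and CCN2 and F3 were the lowest, each at -0.51. Against BSA that median was 0.09. The 30 genes of the ATF4 and unfolded protein response had a median of -0.10 with 22 below 0, and PSAT1 (-0.53) and DNAJB9 (-0.44) were the lowest. Against BSA that median was 0.02. The 33 G1/S and DNA replication genes had a median of -0.10 with 26 below 0, and CCNE2, a cyclin of S phase entry, was at -0.59 where FAM111B of the same list was at 1.13. Single members at 1.5-fold in other lists were HMOX1, the haem-degrading enzyme, at -0.76, PFKFB3, a regulator of glycolysis, at -0.72, and ZBTB16, a glucocorticoid-induced factor, at 0.61.

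**Figure D4:**
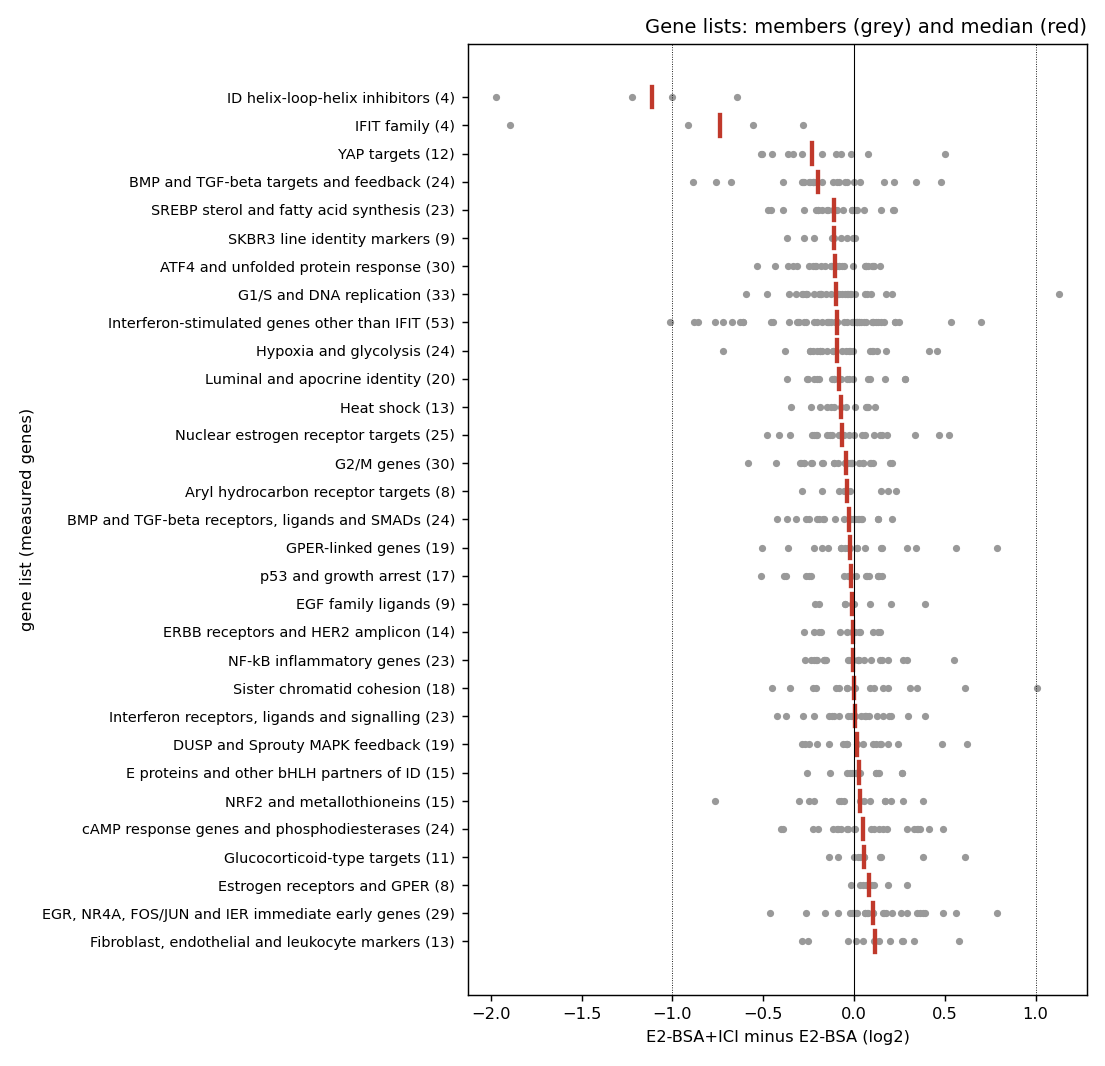
Differences of E2-BSA plus ICI minus E2-BSA (x axis, log2) for the members of 31 gene lists (rows, with the number of genes measured). Grey points are genes and red bars list medians, and the dotted lines mark 2-fold; the ID genes (-1.11) and the IFIT family (-0.74) have the lowest medians, and the others lie between -0.23 and 0.12.

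Markers of the line were 9 in number and had a median of -0.11, from FOXA1 (-0.37) and ERBB2 (-0.28) to GRB7 (0.00). Of these 9, 8 were below 0 (88.9%, beside 46.8% of all genes). Markers of fibroblasts, endothelium and leukocytes were 13 and had a median of 0.12, from CDH5 (-0.29) to CD3E (0.58). None of either list reached 1.5-fold. Because levels are removed, presence of any of them could not be checked, and their part in the other differences was not tested.

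Several control transcripts differed more between the 2 arrays at their 5' ends than at their 3' ends. The probe sets for the 5' end, middle and 3' end of beta-actin (ACTB) differed by -0.51, -0.31 and -0.15, and those of GAPDH by -0.23, -0.12 and -0.02. Of the spiked-in control transcripts, Dap differed by -1.24, -0.44 and -0.16 and Phe by -0.90, -0.53 and -0.04. Lys differed by -0.17, -0.52 and 0.02, Thr by 0.09, -0.21 and -0.05 and Trpn by 0.04, -0.24 and 0.05. In 6 of these 7 controls the 5' difference was below the 3' difference, in Trpn by only -0.01. Other controls with probe sets for both ends were not counted here. The gap between the 5' and 3' values of Dap was 0.26 on the E2-BSA array, 0.44 on the E2-BSA plus G15 array and -0.82 on the ICI array. On the other arrays it was 0.09 with estradiol, -0.08 in untreated cells, -0.16 with G15, -0.23 with BSA and -0.32 with ethanol. The hybridisation controls bioB, bioC, bioD and cre went the other way: all 18 of their probe sets were higher on the ICI array, by 0.25 to 0.77 with a median of 0.60. All 18 were below 0 on the E2-BSA array and above 0 on the ICI array. A 5' probe set of bioB stood at -0.14 with E2-BSA, -0.12 with estradiol, -0.04 with ethanol and 0.00 with E2-BSA plus G15. It stood at 0.16 in untreated cells, 0.36 with BSA, 0.41 with G15 and 0.54 with ICI. The part of either in the gene differences was not tested.

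Counted by probe set, 99 of all 54675 were higher by 2-fold (0.181%) and 67 were lower (0.123%). Those higher ones that carry 1 gene, 83 of the 99, belonged to 74 genes, of which 68 had a gene mean under 2-fold. CDC27, a subunit of the anaphase-promoting complex, had 1 probe set 3.11 higher, while its other 3 lay between -0.25 and -0.01. NIPBL, the cohesin loader, had 1 at 2.30 and the other 4 between -0.41 and -0.04. KIF21A, a kinesin, had 1 at 2.28 and the other at -0.28. The nuclear non-coding RNA MALAT1 had probe sets from -0.76 to 2.55.

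These higher probe sets were chosen by the E2-BSA plus ICI and E2-BSA arrays, and their values on the other arrays are given beside them. Their median value was 1.11 with E2-BSA plus ICI, 0.78 with E2-BSA plus G15, 0.45 with G15 and 0.22 with BSA. It was -0.05 with ethanol, -0.15 in untreated cells, -0.22 with E2-BSA and -0.26 with estradiol. The CDC27 probe set stood at 3.11 with ICI, 3.23 with E2-BSA plus G15, 2.34 with G15 and 1.47 with BSA, and between -0.28 and 0.00 on the other 4 arrays. The 67 lower probe sets had medians of -0.80 with ICI, -0.35 with G15, -0.14 with BSA and -0.02 with E2-BSA plus G15. Their medians were 0.00 with estradiol, 0.02 in untreated cells, 0.08 with ethanol and 0.35 with E2-BSA.

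**Figure D5:**
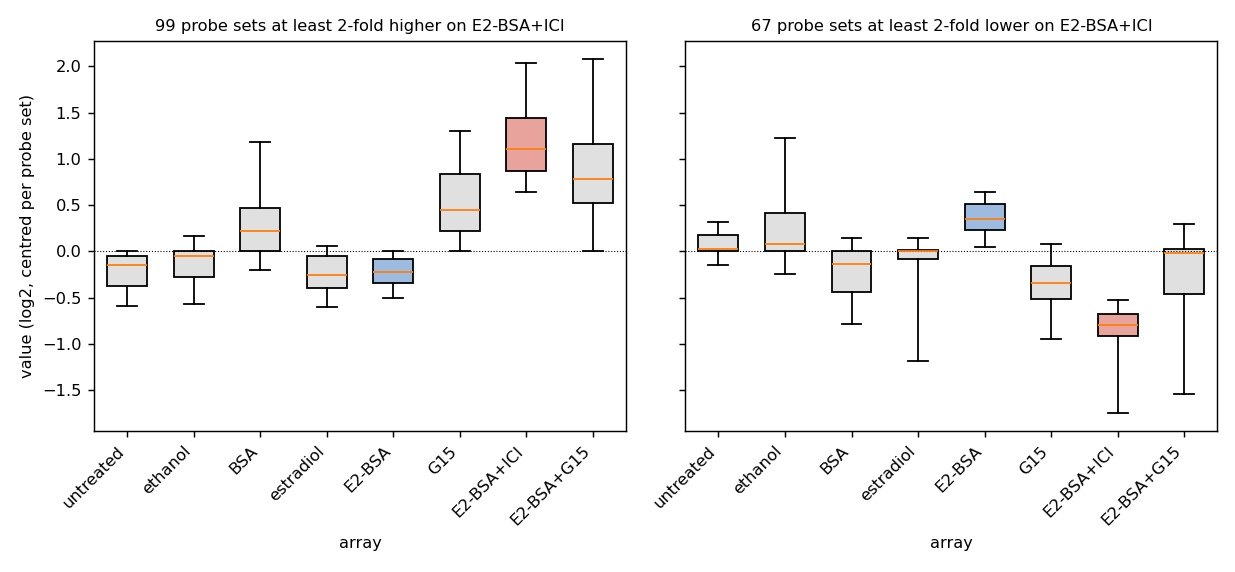
Values (log2, centred per probe set) on each of the 8 arrays of the 99 probe sets at least 2-fold higher (left) and the 67 at least 2-fold lower (right) with ICI. Boxes are quartiles with the median, and whiskers run from the 5th to the 95th percentile; red marks E2-BSA plus ICI and blue E2-BSA, the arrays that chose these probe sets, and in the left panel the medians of E2-BSA plus G15 (0.78) and G15 (0.45) come next after ICI (1.11).

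Across all genes the difference was set beside differences that share neither array. The correlation over 19775 genes was 0.31 (Pearson) and 0.31 (Spearman) with G15 minus untreated, 0.23 and 0.24 with BSA minus untreated, and 0.10 and 0.09 with estradiol minus untreated. With estradiol minus ethanol it was 0.26 and 0.31, and with ethanol minus untreated -0.21 and -0.26. Among the 10523 genes with 2 or more probe sets, the correlation with G15 minus untreated was 0.43 and 0.40, and the other 4 moved less. Genes are not independent replicates, all arrays share a centring, and the values are a description. For ID1 the differences from the untreated array were -2.03 with estradiol and -0.01 with G15, where E2-BSA plus ICI differed from it by -1.94.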

How the data were processed

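RNA of SKBR3 cells was hybridised to 8 Affymetrix arrays of 54675 probe sets, 1 array for each condition, per the labels' protocols. The authors deposited 1 value per probe set and array, here read as log2. The log base, and how probes were summarized and arrays normalized, were not given in these sources. Deposited values lie between -2.27 and 7.85, at most 4 of the 8 arrays are above 0 and at most 4 below in any probe set, and each array's median is 0.00, so levels are removed and no filter on level could be applied. Arrays carry no sequencing depth, and their number limits the precision.

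From the deposited values, the 62 control probe sets were left out, and the platform annotation named 1 gene for 41091 probe sets, several for 1801 and none for 11721. A current RefSeq record was matched for 41037. The 19775 genes are means of their probe sets, 9252 of them from 1. Samples were grouped by their titles. Genes were called at 2-fold or 1.5-fold with no test. Named genes were those at 2-fold, up to 15 a direction with all of several probe sets at 1.5-fold, list members at 1.5-fold, and all ID and estrogen receptor genes. Others are the largest differences of a list, or were chosen after their values were seen. The 31 gene lists and the comparison itself were chosen with earlier results of these data known. A further gene list and a control transcript are not reported here.

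Alternatives were another scaling, rule for probe sets, call or reference array, and limma 3.58.1 (R 4.3.3), which pools control arrays for a spread. The pooled arrays are single arrays of different conditions, so that spread is not replicate error. Python 3.11.15 was used, and the calls were tested on simulated data. The planted shifts were larger than 2-fold, so that test does not cover differences near the 2-fold line. Promoters are RefSeq windows on GRCh38.p14.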

Additional observations from a re-analysis of the deposited data

Results flagged for a closer look

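These probe sets carry no gene name or, in 1 case, are for a control transcript, and so stood outside the comparison of genes. All were at least 2-fold apart and by more than the spread among the BSA, untreated and ethanol arrays, as were 6 unnamed probe sets on the lower and 14 on the higher side in all. Probe set 202855_s_at differed by -2.18 on the log2 scale, at 0.28 with E2-BSA and -1.90 with ICI, and 202856_s_at by -2.11, at 0.09 and -2.02. Both were low with E2-BSA plus G15 too (-1.80 and -2.27), and with estradiol they stood at 0.00 and 0.04, the order of arrays seen in RAC3. Probe set 208930_s_at was higher by 1.89 and 206500_s_at by 1.73, and both were high with E2-BSA plus G15 (1.31 and 1.26). The 5' probe set of the spiked-in Dap control differed by -1.24. No replicate array shows how often such differences arise between arrays of 1 condition.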

How the results depend on the processing

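No paired analysis was possible because each condition has 1 array. The 6 higher genes became 3 against BSA, 1 against the mean of untreated, BSA and E2-BSA, 204 at 1.5-fold and 83 as probe sets with 1 gene, the last added after seeing the data. Under quantile normalization 8 genes were higher, of which 3 were among the 6. Against untreated cells 6 genes were higher, of which 2 were among the 6 reported. The 8 lower genes became 13 under quantile normalization, of which 6 were among the 8, 112 at 1.5-fold and 54 as probe sets. Both limma fits called 0 genes higher and 0 lower: with untreated, ethanol and BSA pooled, 673 and 369 had an unadjusted p under 0.05 and the lowest adjusted p was 0.885, and with untreated and BSA pooled, 1250 and 780 and 0.464. The ID median of -1.11 moved to -0.92 under quantile normalization and -0.93 with the median of probe sets; without shared probe sets ID4 alone is left, at -1.38. The IFIT median of -0.74 moved to -1.01 under quantile normalization, -0.91 without shared probe sets (3 genes), -0.44 against BSA, -0.53 against untreated and -0.57 against the mean reference. Of 217 list medians, 30 changed sign, 27 of them where the reported median was under 0.1 in size. The other 3 were YAP targets (0.092) and the unfolded protein response (0.020) against BSA and line markers against untreated (0.0047). The causes were not tested. In all, 94 of 137 for named genes and 205 of the 217 list medians moved by less than the SD of BSA minus untreated, 0.166. That SD is over single genes and exceeds the size of most list medians, so a list median can change sign within it. A filter on level was not run, since the values hold none.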
